A study of Mus musculus with 4 samples.

Results

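Adhesion G protein-coupled receptors were followed in endothelial cells of the mouse heart from the embryo to the adult. The members were 5 receptor genes chosen by name, Adgrg6, Adgrl4, Adgrf5, Adgrl2 and Adgrg1, of 27998 genes in the count tables, and 25 other adhesion receptor genes were counted beside them. RNA was measured by 10x Genomics single-cell sequencing in CD31+/CD45- cells sorted from C57Bl6J hearts at E12 (37 animals pooled), E15 (48), P2 (21) and in the adult (8 weeks, 6). No group is labelled with a mutation or a treatment. Embryonic and postnatal hearts were digested with different enzyme mixes, and dead cells were removed with a kit before birth and by a renewed sort after it. Each stage was 1 library of pooled and frozen sorts, so that stage and library cannot be told apart, no test between stages or classes was possible, and every interval given here covers counting error only.

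Adhesion receptors carry a long extracellular region that binds proteins on neighbouring cells or in the matrix, followed by the membrane-spanning bundle of a G protein-coupled receptor. In most members the protein cuts itself at a conserved site just outside the membrane, and the short stretch behind the cut acts as a tethered agonist when it is exposed. In the heart and its vessels Adgrg6 (also called GPR126) is known from endocardial cells and trabeculation, Adgrl4 (ELTD1) and Adgrf5 (GPR116) are endothelial receptors, Adgrl2 (latrophilin 2) binds teneurins and FLRT proteins, and Adgrg1 (GPR56) binds collagen III and transglutaminase 2.

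The coding sequence at this cleavage site is shown because it is a feature that the 5 genes share. Each line gives 60 bases, 5′ to 3′ on the coding strand, from the GENCODE vM21 transcripts on GRCm38, with the 3 codons of the cleavage site in capitals.
Adgrg6: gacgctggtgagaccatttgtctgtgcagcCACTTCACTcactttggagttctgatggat
Adgrl4: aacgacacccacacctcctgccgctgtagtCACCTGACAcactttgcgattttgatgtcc
Adgrf5: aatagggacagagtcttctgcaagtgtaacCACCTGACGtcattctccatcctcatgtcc
Adgrl2: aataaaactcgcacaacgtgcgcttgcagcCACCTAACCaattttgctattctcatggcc
Adgrg1: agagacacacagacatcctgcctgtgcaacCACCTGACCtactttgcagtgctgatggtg
The exons and positions given next are those of the 60 bases, not of the 3 codons alone. The Adgrg6 site lay at codon 837 of 1193, with its 60 bases in exons 18 and 19 (chr10:14428215-14431662, minus strand, across an intron). That of Adgrl4 lay at codon 454 of 739, in exon 10 (chr3:151509305-151509364, plus strand). In Adgrf5 it was codon 991 of 1348, in exon 17 (chr17:43450356-43450415, plus strand). In Adgrl2 it was codon 827 of 1487, in exon 12 (chr3:148837579-148837638, minus strand). In Adgrg1 it was codon 381 of 687, with its 60 bases in exons 9 and 10 (chr8:95007612-95008373, plus strand, across an intron). The libraries count the 3′ ends of transcripts, so their values say nothing about isoforms that differ at this site.

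The genes ranged from 39.5 kb (Adgrg1, ENSMUSG00000031785, chr8:94974751-95014217) to 175.0 kb (Adgrl2, ENSMUSG00000028184, chr3:148815583-148990555). Adgrg6 (ENSMUSG00000039116) spans chr10:14402583-14545659, Adgrl4 (ENSMUSG00000039167) chr3:151437887-151545086 and Adgrf5 (ENSMUSG00000056492) chr17:43360451-43459557. Only Adgrf5 shared its strand with another annotated gene, Gm25135. Adgrg6 overlapped 2 predicted genes on the opposite strand and Adgrl2 overlapped 1.

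After filtering, 5257, 5520, 5510 and 4003 cells remained (E12, E15, P2, adult), with a median of 1208, 981, 4433 and 1474 UMIs per cell. A UMI is 1 captured RNA molecule, and levels are given as UMIs per 1e+06 UMIs of a class (CPM). Classes were cut from a few markers: endocardial cells had more UMIs of Npr3 and Tmem108 than of Fabp4, Cldn5 and Aplnr, coronary cells had at least 2 UMIs of the last 3 genes and more of them than of the first 2, artery cells had at least 3 UMIs of Cxcl12, Glul, Alpl and Nebl, and non-endothelial cells had no UMI of Pecam1, Cdh5 or Egfl7. This gave 1552, 1942, 1052 and 65 endocardial cells and 102, 1109, 4262 and 3863 coronary cells, by stage from E12 on. Libraries shared 25 to 60 cell barcodes per pair.

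The class names were compared with markers that the rule did not use. Each of 5 endocardial markers (Cytl1, Igfbp5, Hapln1, Cdh11, Plagl1) was higher in endocardial than in coronary cells from E15 on, and 4 of 5 were at E12. Of the 5 coronary markers (Cd36, Car4, Rgcc, Tcf15, Meox2), all were higher in coronary cells from E15 on and 3 at E12. In the 102 coronary cells of E12 these markers summed to 196 CPM, and lymphatic markers to 764 CPM. The name coronary is therefore weak at E12, and so are the E12 ratios that use it. For the non-endothelial class 5 other endothelial markers (Kdr, Tie1, Emcn, Eng, Cd93) were used: each was higher in coronary cells at E12, P2 and the adult, but only 3 of 5 were at E15, with sums of 1380 CPM in coronary and 1119 CPM in non-endothelial cells. The name does not hold at E15, and the class overlapped the others at each stage. At E12 542 of its 2797 cells were endocardial, and at E15 514 of 1756 were. Most of its later cells were coronary, 11 of 13 at P2 and 90 of 119 in the adult. At every stage the name stands only for cells without a UMI of the 3 genes of the rule. The name artery is used only from E15 on and only among coronary cells, where Gja4, Gja5, Hey1, Sox17 and Efnb2 were all higher. It does not stand for arterial cells alone. The 5 coronary markers also summed to more in artery than in other coronary cells. The sums were 3519 and 3011 CPM at P2, and 6580 and 5935 CPM in the adult. Adult artery cells were 1749 of the 3863 coronary cells, with a median of 1738 UMIs against 1258 in the others. With classes set at 500 UMIs per cell they were 588. The part of capillary cells and of depth in artery levels was not tested. At E12 none of the 289 artery cells was coronary and 231 had no endothelial UMI, and their mural and fibroblast markers summed to 1579 CPM against 35.2 CPM in coronary cells. The E12 cells are therefore called Cxcl12-rule cells below, and artery comparisons start at E15. The 16 coronary artery cells of E15 also carried 1354 CPM of lymphatic markers, against 494 CPM in other coronary cells. Their mural and fibroblast markers summed to 580 CPM against 82.2 CPM, so the name is uncertain at that stage.

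Other limits of the classes touch the results. Lymphatic markers (Prox1, Lyve1, Flt4, Ccl21a) summed to 764, 508, 978 and 117 CPM in coronary cells and to 47.6, 71.9, 176 and 237 CPM in endocardial cells, so some lymphatic cells sat in the coronary class. Mural and fibroblast markers (Rgs5, Pdgfrb, Col1a1, Dcn) summed to 350, 353, 662 and 1754 CPM in endocardial cells and to 35.2, 90.1, 203 and 491 CPM in coronary cells. Fabp4 reached 22169 CPM in adult coronary cells, and in cells that were endocardial by the other markers it still stood at 1190 CPM at P2 and 3017 CPM in the adult. At P2, 415 of the 4262 coronary cells held more Npr3 and Tmem108 than Cldn5 and Aplnr, and 532 held no UMI of Cldn5 or Aplnr. In the adult these were 47 and 1388 of 3863 cells. Values without Fabp4 in the rule, and without cells holding 2 or more lymphatic UMIs, are given where they end a call or move a value by over 1.5 times, and both alternatives were chosen after the data were seen. Leaving out lymphatic marker cells also took cells from the endocardial class, from 1052 to 870 at P2 and from 65 to 53 in the adult. The coronary class went from 4262 to 3917 and from 3863 to 3840 cells.

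Adgrg6 was the member that was higher in endocardial cells. It stood at 156 CPM (95% Poisson interval 139 to 174) in E12 endocardial cells, at 207 CPM (188 to 228) at E15, at 86.9 CPM (78.9 to 95.5) at P2 and at 79.1 CPM (40.9 to 138) in the adult. In coronary cells the same libraries gave 10.0, 18.3, 9.28 and 1.09 CPM, from 2, 24, 191 and 7 UMIs. Every endocardial level lay above every coronary level, and the intervals of the classes did not overlap at any stage.

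The coronary over endocardial ratio of Adgrg6 came to 0.064 (0.008 to 0.234) in the E12 library, 0.088 (0.056 to 0.133) in that of E15 and 0.107 (0.090 to 0.127) in that of P2. Written the other way, the endocardial level was 15.5-fold, 11.3-fold and 9.37-fold higher. The E12 value rests on 2 coronary UMIs in 1 cell, and its ratio was 0.27 (0.032 to 0.97) with classes set on thinned counts. In the adult, where only 19 UMIs of the gene lay in both classes, it was 0.014 (0.0046 to 0.038). Without Fabp4 in the rule the P2 ratio was 0.042 (0.031 to 0.056), from 583 endocardial and 51 coronary UMIs.

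**Figure D1:**
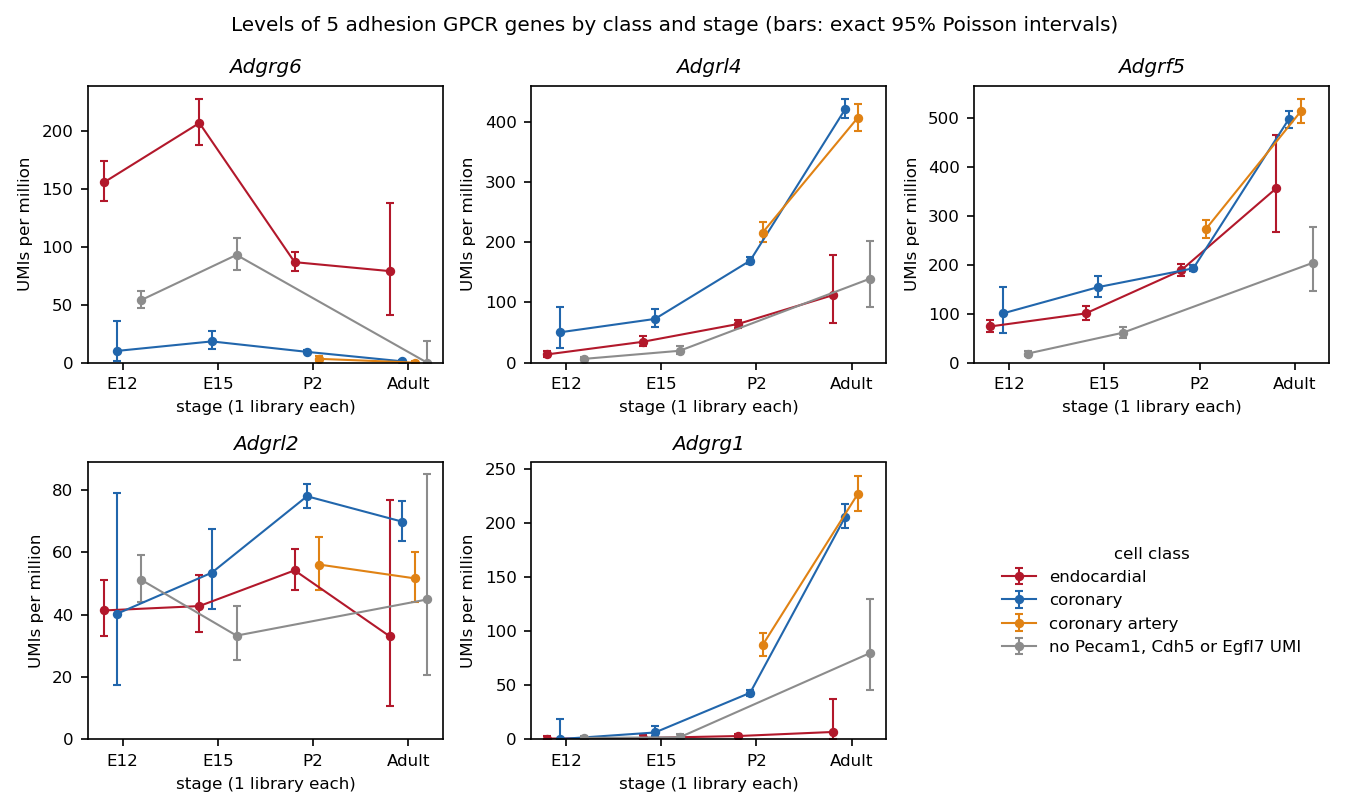
Levels of the 5 receptor genes in CPM (linear axis from 0) by stage, 1 library each, in endocardial cells, coronary cells, coronary artery cells and cells with no UMI of Pecam1, Cdh5 or Egfl7, with exact 95% Poisson intervals. Classes under 50 cells are not drawn, and lines join the points that are. Adgrg6 was highest in endocardial cells at each stage, with 207 CPM at E15, while Adgrl4, Adgrf5 and Adgrg1 reached 422, 497 and 206 CPM in adult coronary cells.

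Over time endocardial Adgrg6 had an E15 over E12 ratio of 1.33 (1.15 to 1.54). From E15 to P2 it fell to 0.42 of its level (0.37 to 0.48), and with the median gene of that step set to 1, to 0.35. The adult over P2 ratio was 0.91 (0.47 to 1.61), with 12 UMIs in 65 cells. At an equal depth of 500 UMIs per cell, which drops 13 endocardial cells at E12 and 99 endocardial and 66 coronary cells at E15 for having fewer, 7.15%, 10.2%, 5.13% and 3.08% of endocardial cells held a UMI of Adgrg6, and 0.980%, 0.767%, 0.516% and 0.0777% of coronary cells did. Without thinning these shares were 16.8%, 18.4%, 29.6% and 16.9%, and 0.980%, 1.98%, 3.57% and 0.155%. The endocardial shares passed the coronary ones at each stage on either count. As a background level, 1 of 34 barcodes rich in haemoglobin RNA at E12 (2.94%, median 1834 UMIs) and none of 28 with macrophage markers at E15 (median 1039 UMIs) held the gene. The E12 coronary share is 1 of 102 cells, and these numbers are too small to tell it from background.

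Where the few coronary Adgrg6 UMIs of P2 lay was looked at by vessel markers, with each cell in 1 group only. Cells that met more than 1 marker group, or none, were left out. The artery group therefore held 336 of the 619 coronary artery cells at P2 and 694 of 1749 in the adult. The cells left out held most of the 191 coronary Adgrg6 UMIs of P2, so the groups do not place these. Without Fabp4 in the rule the P2 coronary class held 51 UMIs of the gene. In the artery group there were 6 UMIs, and in angiogenic capillary cells there was 1. Among 1524 coronary cells with mature capillary markers (Timp4, Car4, Rgcc) there were 5 UMIs, or 0.73 CPM (0.24 to 1.71). In 306 cells with vein markers (Vwf, Prss23, Nr2f2) there were 36 UMIs, or 22.2 CPM (15.6 to 30.8), and the mature capillary over vein marker ratio was 0.033 (0.010 to 0.084). The name vein does not hold for this group, whose lymphatic markers summed to 10565 CPM against 41.5 CPM in mature capillary cells, so it is called the Nr2f2 group here. The 159 of its cells with fewer than 2 lymphatic UMIs held 39.8 CPM (27.0 to 56.4) of Adgrg6, from 31 UMIs. In the adult no Adgrg6 UMI was found in 1074 mature capillary cells, which allows up to 1.75 CPM, or in 694 artery cells, which allows up to 2.67 CPM. The Nr2f2 group without lymphatic cells also carried 1880 CPM of the 5 endocardial markers at P2, against 147 CPM in mature capillary cells. In the adult these sums were 2133 and 23.4 CPM. The part of endocardial cells in the levels of this group, for Adgrg6 or any other member, was not tested.

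The level of Adgrg6 was also looked at in groups of endocardial cells. At P2 it stood at 91.1 CPM in 480 endocardial cells with Igfbp5 and Cytl1 and at 100.2 CPM in 110 cells with Pla2g7 and Prr15, a ratio of 0.91 (0.67 to 1.26). At E15 the 2 groups stood at 197 and 146 CPM, a ratio of 1.35 (0.74 to 2.65). Neither pair lay apart, but the E15 interval is wide. Cells with valve markers (Cldn11, Enpp2, Pthlh, Wnt4) at P2 had 34.4 CPM (26.6 to 43.7) in 342 cells, below both groups. The valve marker cells had an endothelial UMI but need not be in the endocardial class, unlike the cells of both groups.

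At E12 the Adgrg6 level of cells without an endothelial UMI lay below that of near-empty droplets. E12 barcodes with 100 UMIs or fewer held 103 CPM (80.8 to 129). Embryonic cells with no endothelial UMI that were neither endocardial nor coronary held 41.7 CPM (34.7 to 49.7) at E12 and 61.8 CPM (48.3 to 77.8) at E15. Cells that met the artery rule were not left out of them. In the same cells Adgrl4 stood at 5.38 and 11.2 CPM and Adgrf5 at 14.1 and 42.9 CPM. The whole non-endothelial class of the rule, which also takes in 542 endocardial cells at E12 and 514 at E15, held 54.1 and 93.2 CPM of Adgrg6.

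Adgrl4 was higher in coronary than in endocardial cells at each stage. In coronary cells it stood at 50.2 CPM (24.1 to 92.4) at E12, 72.5 CPM (58.7 to 88.7) at E15, 169 CPM (164 to 175) at P2 and 422 CPM (406 to 438) in the adult. In endocardial cells it stood at 13.6, 34.5, 64.0 and 112 CPM. Near-empty droplets of E12, with 100 UMIs or fewer, held 21.9 CPM (12.5 to 35.6) of Adgrl4. The E12 endocardial level was not above theirs, and the interval of the E12 coronary level overlapped theirs. The classes did not overlap in their intervals at any stage, and the adult endocardial level, the highest of that class, lay between the E15 and P2 coronary levels.

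The coronary over endocardial ratio of Adgrl4 was 3.69 (1.60 to 7.83) at E12 from 38 UMIs, then 2.104 (1.53 to 2.90), 2.64 (2.36 to 2.98) and 3.76 (2.34 to 6.47). Without Fabp4 in the rule the E15 ratio was 1.93 (1.13 to 3.16), just short of 2-fold. The coronary E15 over E12 ratio was 1.44 (0.75 to 3.11), which does not tell these stages apart, and 3.63 with classes set on thinned counts. In coronary cells the gene rose 2.34-fold (1.90 to 2.89) from E15 to P2, which is 1.85-fold once the median gene of that step is set to 1. It rose a further 2.49-fold (2.37 to 2.62) to the adult. Endocardial Adgrl4 rose 2.53-fold (1.61 to 4.07) from E12 to E15, and the later steps were 1.86 and 1.75. At 500 UMIs per cell 2.94%, 3.45%, 8.31% and 19.6% of coronary cells held it, against 0.520%, 1.84%, 3.14% and 6.15% of endocardial cells.

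Among coronary cells of P2 Adgrl4 was lowest in the Nr2f2 group, which also carried endocardial markers. Adgrl4 stood at 53.1 CPM there, or 75.7 CPM (57.6 to 97.6) without the lymphatic cells, at 151 CPM in angiogenic capillary (Kcne3, Apln, Esm1), at 221 CPM in mature capillary and at 191 CPM in artery cells. These are cells that met 1 marker group only. All 619 coronary artery cells of P2 stood higher than other coronary cells, with 216 CPM (200 to 233) against 161 CPM (155 to 167). In the adult these levels were 407 CPM (385 to 429) and 437 CPM (414 to 461). Mature capillary over Nr2f2 group was 4.16 (3.34 to 5.23), and 2.92 (2.25 to 3.85) without the lymphatic cells. Artery over Nr2f2 group was 2.52 (1.90 to 3.39) without them. In the adult mature capillary over Nr2f2 group was 1.73 (1.29 to 2.39), with 80 cells in the latter, and artery over mature capillary was 0.69 (0.61 to 0.78). The 326 lymphatic marker cells of P2, which need not be coronary, held 45.7 CPM.

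Adgrf5 was found in both classes. It stood at 73.9 CPM (62.6 to 86.6), 101 CPM (87.3 to 115), 188 CPM (176 to 201) and 356 CPM (268 to 465) in endocardial cells and at 100.5 CPM (61.4 to 155), 154 CPM (134 to 177), 193 CPM (187 to 199) and 497 CPM (480 to 514) in coronary cells. Near-empty droplets of E12, with 100 UMIs or fewer, held 78.1 CPM (59.1 to 101), and the E12 intervals of both classes overlapped theirs. The classes overlapped each other at E12 and P2 and lay apart at E15 and in the adult. Their ratios were 1.36 (0.81 to 2.17), 1.53 (1.26 to 1.87), 1.02 (0.95 to 1.10) and 1.39 (1.07 to 1.86), all short of 2-fold. The adult ratio was 1.07 (0.89 to 1.31) without Fabp4 in the rule and 1.25 (0.94 to 1.71) without lymphatic marker cells, so that the adult separation did not hold under either.

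The step that passed 2-fold was P2 to adult in coronary cells, where Adgrf5 rose 2.58-fold (2.46 to 2.70). Coronary E15 over E12 was 1.53 (0.97 to 2.57), and 2.06 (1.01 to 4.74) without Fabp4 in the rule. From P2 to the adult endocardial Adgrf5 had a ratio of 1.89 (1.41 to 2.49), which was 2.30 (1.89 to 2.78) without Fabp4, and from E15 to P2 it had 1.87 (1.61 to 2.19), or 1.56 with the median gene at 1. Coronary cells had 1.25 (1.08 to 1.45) from E15 to P2, and 0.99 with the median gene at 1. At 500 UMIs per cell the share of cells with a UMI was 3.77%, 5.05%, 10.1% and 21.5% in endocardial and 3.92%, 7.57%, 10.3% and 22.4% in coronary cells, so the classes were close at P2 and in the adult.

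Artery cells held the most Adgrf5 at P2, with 287 CPM against 194 CPM in mature capillary cells, a ratio of 1.48 (1.33 to 1.65), and 212 CPM (181 to 247) in the Nr2f2 group without lymphatic cells, a ratio of 1.36 (1.13 to 1.63). In the adult these were 1.19 (1.07 to 1.32) and 1.13 (0.89 to 1.45). Valve marker cells of P2 held 190 CPM, close to the endocardial level.

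No stage step of Adgrl2 passed 2-fold in either class, but with classes set on thinned counts the coronary E15 over E12 ratio was 2.55. In endocardial cells it stood at 41.3, 42.7, 54.2 and 33.0 CPM and in coronary cells at 40.2, 53.4, 78.0 and 69.8 CPM. Coronary over endocardial ratios were 0.97 (0.41 to 2.00), 1.25 (0.90 to 1.73) and 1.44 (1.26 to 1.64) up to P2. The adult ratio, 2.12, passed 2-fold on 5 endocardial UMIs, with an interval from 0.90 to 6.55 that includes 1, and it was 1.60 without Fabp4 in the rule.

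Its clearest difference was within coronary cells, where artery cells were low. Artery over other coronary cells was 0.68 (0.58 to 0.80) at P2, from 56.1 and 81.9 CPM, and 0.58 (0.48 to 0.71) in the adult, from 51.6 and 88.8 CPM. Against mature capillary cells artery cells had 0.57 (0.45 to 0.72) and 0.55 (0.39 to 0.76). The Nr2f2 group of P2 was low as well, with 57.7 CPM (42.1 to 77.2) without lymphatic cells, against 86.7 CPM in mature and 96.4 CPM in angiogenic capillary cells. That group also carried endocardial markers, and the part of endocardial cells in its Adgrl2 level was not tested. At E12 the Adgrl2 levels overlapped that of near-empty droplets, the barcodes with 100 UMIs or fewer, which held 53.4 CPM (38.0 to 73.0). Adgrl2 stood at 73.9 CPM (50.2 to 105) in the 289 Cxcl12-rule cells, of which 44 were in the endocardial class. It stood at 53.4 CPM (45.5 to 62.4) in E12 cells with no endothelial UMI that were neither endocardial nor coronary. Cxcl12-rule cells were not left out of that group, so the 2 groups overlap. The endocardial and coronary levels of E12, 41.3 and 40.2 CPM, lay within the interval of the droplets.

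Adgrg1 was nearly absent before birth. Coronary cells held 0 UMIs at E12, which allows up to 15.1 CPM, and 8 UMIs or 6.11 CPM (2.64 to 12.04) at E15. They held 42.9 CPM (40.1 to 45.8) at P2 and 206 CPM (195 to 218) in the adult. Endocardial cells held 1, 2, 14 and 1 UMIs, or 0.49, 0.97, 2.81 and 6.60 CPM. The coronary levels of P2 and the adult lay above each endocardial level.

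In coronary cells Adgrg1 rose 7.02-fold (3.55 to 16.3) from E15 to P2 and 4.81-fold (4.41 to 5.24) to the adult. Without Fabp4 in the rule the first step was 15.4 (2.75 to 608), on 1 UMI at E15. The ratio to endocardial cells reached 15.3 (9.05 to 28.0) in P2 and 31.2 (5.60 to 1235) in adult cells, where the endocardial side is 1 UMI. With Fabp4 out of the rule these were 18.2 (11.8 to 29.6) and 8.39 (4.05 to 20.9), with 7 endocardial UMIs in the adult. At 500 UMIs per cell the gene was found in 0 of 102 coronary cells at E12, in 1 of 1043 at E15, in 2.25% at P2 and in 9.73% of adult cells.

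**Figure D2:**
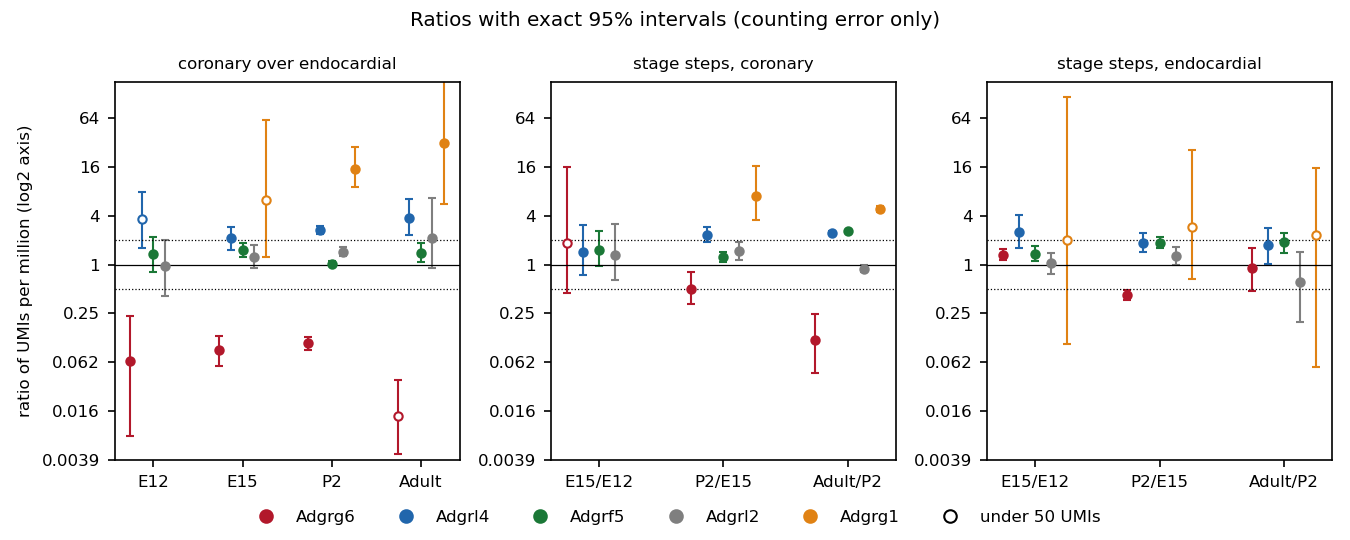
Ratios of CPM (log2 axis) of coronary over endocardial cells and of each stage over the one before, with exact 95% intervals; open points rest on under 50 UMIs in both groups together, dotted lines mark 2-fold and 0.5-fold, and the interval of adult Adgrg1 runs past the axis. Adgrg6 lay between 0.014 and 0.107, and Adgrg1 had the highest steps in coronary cells, 7.02 and 4.81.

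Adgrg1 was also higher in artery cells than in other coronary cells at P2. Artery cells stood at 87.0 CPM (76.9 to 98.0) and other coronary cells at 35.1 CPM (32.3 to 38.0), a ratio of 2.48 (2.14 to 2.87). In the adult the levels were 227 and 184 CPM, a ratio of 1.23 (1.10 to 1.38). Split by markers at P2, Adgrg1 stood at 88.3 CPM in artery, 57.1 CPM in mature capillary, 23.6 CPM in angiogenic capillary and 14.1 CPM in Nr2f2 group cells without the lymphatic ones. The steps down this order were 1.55 (1.27 to 1.88), 2.42 (1.61 to 3.78) and 1.67 (0.79 to 3.77), so that the last pair did not lie apart. In the adult the artery and mature capillary groups no longer lay apart, with 199 and 213 CPM and a ratio of 0.94 (0.79 to 1.11), and both lay above the Nr2f2 group without lymphatic cells, at 51.9 CPM, by 3.84-fold (1.92 to 9.01) and 4.10-fold (2.06 to 9.58).

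**Figure D3:**
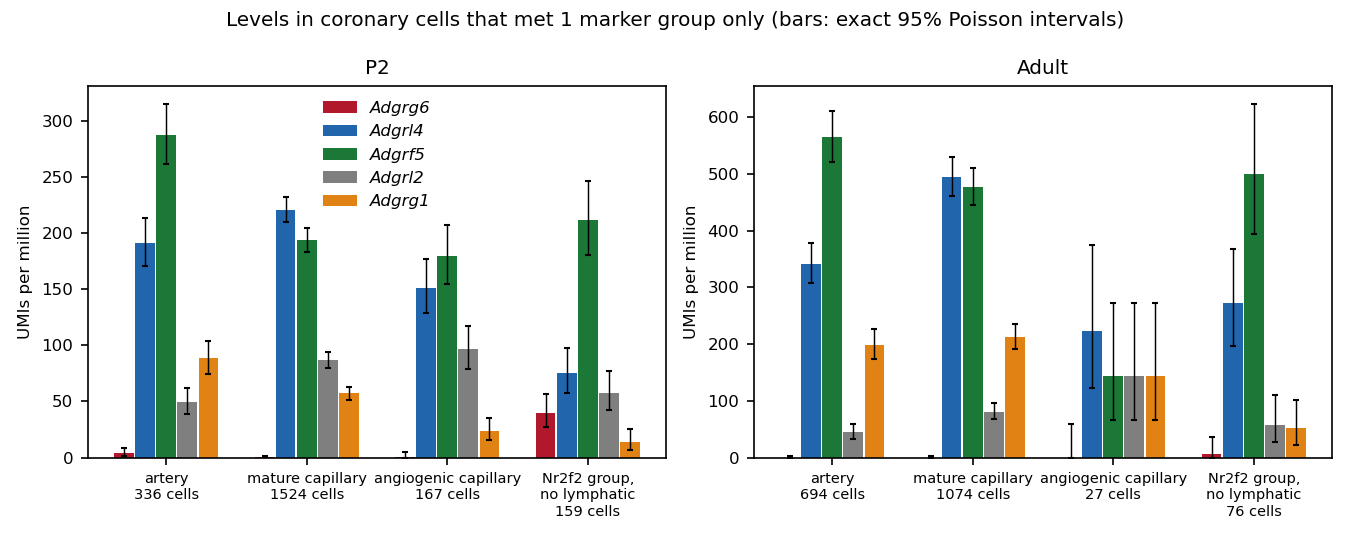
Levels of the 5 genes in CPM (linear axis from 0) in coronary cells of P2 and the adult that met 1 marker group only, with exact 95% Poisson intervals and the number of cells under each group. The Nr2f2 group is drawn without its lymphatic cells. At P2 Adgrg1 steps down from artery (88.3 CPM) to that group (14.1 CPM), and the adult angiogenic group holds 27 cells.

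The counts of members past 2-fold were read against all genes with at least 50 UMIs in both groups together. At E12, 3 members had that many UMIs, none was at least 2-fold higher in coronary cells (3.74% of genes were) and 1, Adgrg6, was at least 2-fold higher in endocardial cells (16.5%). At E15, with 4 members, 1 was higher in coronary (5.11%) and 1 in endocardial cells (10.5%). At P2, with 5, these were 2 (10.2%) and 1 (8.97%). In the adult, with 4, they were 3 (21.9%) and 0 (11.7%).

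In coronary cells no member passed 2-fold from E12 to E15, where 8% of genes rose and 2.67% fell. From E15 to P2, 2 of 5 rose (20.1% of genes) and none fell (3.82%). With the median gene of the step set to 1, Adgrl4 (1.85) no longer passed and Adgrg6 (0.40) passed downward, so that 1 rose, Adgrg1, and 1 fell. The shares of all genes were not scaled in this way, so these 2 counts have none beside them. Without that scaling Adgrg6, at 0.51 (0.33 to 0.81), lay just inside that bound, and it was 0.20 (0.079 to 0.63) without Fabp4 in the rule and 0.46 (0.29 to 0.75) without lymphatic marker cells. From P2 to the adult 3 rose (9.6%) and 1, Adgrg6, fell (12.5%), to 0.12 of its level (0.047 to 0.247). The share of genes past 2-fold upward from E15 to P2 goes with a median gene ratio of 0.34 on the log2 scale and with the deeper P2 cells, and the part of depth in it was not tested.

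In endocardial cells 1 of 4 members rose from E12 to E15 (2.46% of genes) and none fell (2.77%). From E15 to P2 none of 4 rose (12.6%) and 1 fell (3.69%), with a median gene at 0.26 on the log2 scale. From P2 to the adult none of 4 rose (9.04%) or fell (18.7%), but without lymphatic marker cells Adgrl4 and Adgrf5 passed 2-fold upward, with 2.25 and 2.12, and Adgrl2 downward, with 0.496 on 3 adult UMIs. Between artery and other coronary cells 1 of 5 members was at least 2-fold higher at P2 (2.71%), and 1, Adgrg6, was at least 2-fold lower (6.19%), from 10 and 181 UMIs, a ratio of 0.31 (0.15 to 0.59) that was 0.59 without Fabp4 and 0.62 without doublet removal. In the adult none of 4 was higher (1.41%) or lower (2.23%). At E15, with 16 artery cells, none of 3 was higher (13.2%) or lower (25.5%). There Adgrl4 and Adgrl2 rest on 1 artery UMI each and Adgrf5 on 5. The artery side held 20676 UMIs against 1289103 in other coronary cells. This is too few to place ratios, so nothing is read from the E15 count or its shares.

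**Figure D4:**
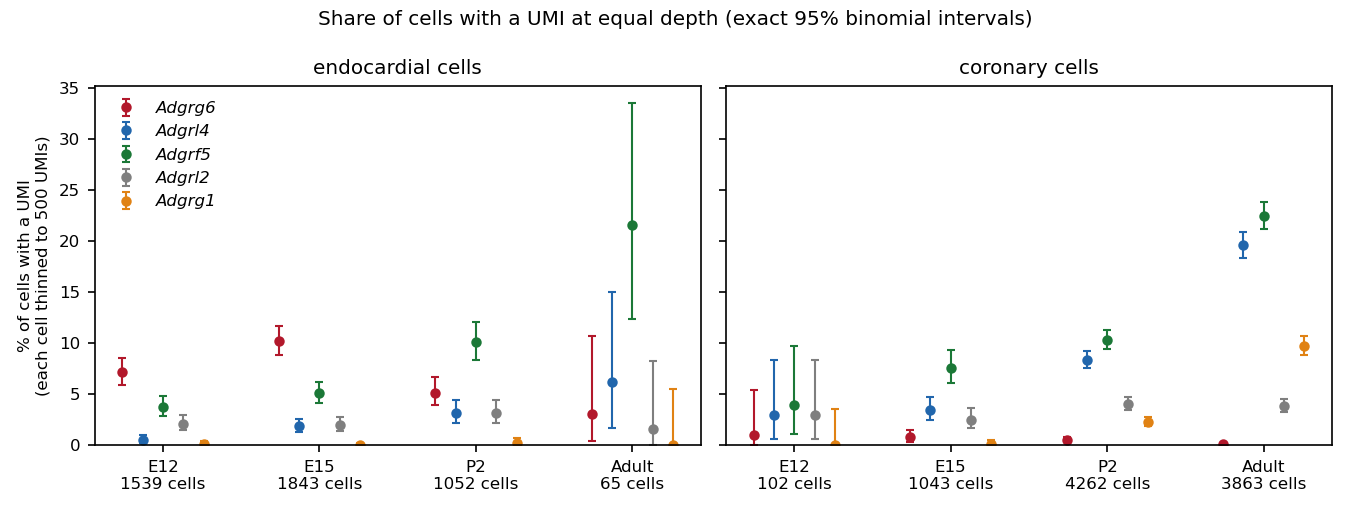
Share of endocardial and coronary cells with at least 1 UMI of each gene at a depth of 500 UMIs per cell, without the cells that had fewer, in percent (linear axis from 0), by stage, with exact 95% binomial intervals and the number of cells. Adgrg6 stood at 10.2% of endocardial cells at E15, and Adgrf5 and Adgrl4 reached 22.4% and 19.6% of adult coronary cells.

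Members were found together in few cells at equal depth. In adult coronary cells 45.0% held at least 1 member and 9.66% held 2 or more, against 23.2% and 2.09% at P2. Adgrl4 and Adgrf5 were both found in 202 of 3863 adult cells, where the product of their shares gives 170. At P2 this pair was in 35 coronary cells, where the product gives 36.4. Adgrl4 and Adgrg1 were both in 2 coronary cells at P2, where the product gives 7.97. In the adult they were both in 74, where it gives 73.6. In 4262 thinned P2 coronary cells none of the 22 with Adgrg6 held Adgrl4, Adgrf5, Adgrl2 or Adgrg1, where the products give 0.5 to 2.3 cells. The other libraries held too few coronary cells with Adgrg6 to tell whether this repeats. At E12 there was 1, and it held no other member. In the adult 2 of the 3 coronary cells with Adgrg6 held Adgrf5, where the product gives 0.67. At E15 1 of the 8 held Adgrl4, where the product gives 0.28. These numbers are descriptions of 1 library each.

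Over 11 points (endocardial, artery and other coronary cells in 4 stages, less the E12 artery class, which held no coronary cell) the levels of Adgrl4 and Adgrg1 had a Pearson correlation of 0.93 on the log2(CPM + 10) scale, Adgrl4 and Adgrf5 had 0.88, and Adgrg6 had -0.81 with Adgrl4. The genes most like each member among 9679 genes were named by the same measure. For Adgrg6 they were Hand2 (0.98), a transcription factor of the heart, Col23a1 (0.96) and Igf2r (0.94). For Adgrl4 they were Cyyr1 (0.98), Gimap6 (0.98) and Zfp36 (0.97), and for Adgrf5 Flt1 (0.97), a VEGF receptor, Reep3 (0.96) and H2-D1 (0.95). For Adgrl2 they were Sh3tc2 (0.88), Rnf130 (0.85) and BC028528 (0.84), and for Adgrg1 Lims2 (0.99), Abcb1a (0.99), an efflux pump, and Aqp7 (0.99), a glycerol channel. The points share libraries and cells, so the values are descriptions.

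The members' promoters were read for letters of known factors because Adgrg6 and Adgrl4 lie at opposite ends of that comparison. RefSeq windows of 300 bases (GRCm38.p6) matched all 5 members, with 7 windows. The motifs were CCGGAA for ETS factors, AGATAA for GATA factors, TGGGAA for RBPJ and CCACCC for KLF factors, searched on both strands, with overlaps allowed. They occur in 14.9%, 11.2%, 25.6% and 31.5% of all 32851 windows, and in 1, 0, 3 and 2 of the 7 member windows. The windows of Adgrg6 (chr10:14544987-14545286, minus strand) and Adgrl4 (chr3:151437632-151437931, plus strand) read as follows, 5′ to 3′, with motif letters in capitals.
Adgrg6: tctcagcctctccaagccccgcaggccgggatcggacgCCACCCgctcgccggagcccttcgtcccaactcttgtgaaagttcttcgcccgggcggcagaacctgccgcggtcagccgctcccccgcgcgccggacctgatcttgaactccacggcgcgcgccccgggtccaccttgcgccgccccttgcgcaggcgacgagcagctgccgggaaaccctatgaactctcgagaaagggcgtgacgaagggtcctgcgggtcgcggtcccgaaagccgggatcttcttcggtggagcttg
Adgrl4: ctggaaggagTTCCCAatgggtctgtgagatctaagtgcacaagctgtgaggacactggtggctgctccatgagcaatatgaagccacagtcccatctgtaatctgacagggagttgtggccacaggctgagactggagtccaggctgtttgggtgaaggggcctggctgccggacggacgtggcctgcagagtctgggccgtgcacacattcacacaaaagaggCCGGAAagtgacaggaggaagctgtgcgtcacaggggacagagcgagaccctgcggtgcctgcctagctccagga
Adgrg6 held 1 kind of motif, that of KLF, in a window with 69.0% G and C, and Adgrl4 held those of RBPJ and ETS in a window with 58.7%, where the median window has 52.7%. The ETS letters were in no other member window. A match is a description of letters and not a site.

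Of the 25 other adhesion receptor genes 17 had under 50 UMIs over the classes and 5 were at 0. The 6 with most UMIs were Adgra2, Adgre5, Adgrl1, Adgra3, Adgrg3 and Celsr2. Adgra2 (GPR124), which acts with Reck in Wnt7 signalling in brain vessels, was higher in endocardial than in coronary cells. Its coronary over endocardial ratios were 0.41 (0.17 to 0.82), 0.45 (0.33 to 0.60), 0.37 (0.33 to 0.42) and 0.10 (0.056 to 0.21). Endocardial cells held 98.2, 102, 82.3 and 85.7 CPM of Adgra2, and coronary cells 40.2, 45.8, 30.4 and 8.89 CPM. It stood at 71.5 CPM in E12 Cxcl12-rule cells and at 68.2, 65.4, 44.8 and 14.9 CPM in non-endothelial cells. That class takes in 542 endocardial cells at E12 and 514 at E15, and coronary cells were 11 of 13 at P2 and 90 of 119 in the adult. Its P2 and adult levels are those that 3 UMIs give. No near-empty droplet level was taken for Adgra2, so its level outside the endothelium was not tested. Adgre5 (CD97), a receptor of CD55, stood at 10.0, 42.0, 49.1 and 73.7 CPM in coronary cells and passed 2-fold over endocardial cells at P2, with 2.75 (2.21 to 3.45). From P2 to the adult 5 of the 7 family genes with enough UMIs fell at least 2-fold in coronary cells (12.5% of all genes did) and none rose as much (9.6%). Adgre5 had a ratio of 1.50 (1.34 to 1.68). Among those that fell were Adgra2 with 0.29 (0.22 to 0.38) and Adgrl1 with 0.42 (0.29 to 0.59).

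Of 22 ligand genes 13 had enough UMIs in the P2 classes, where 2 were at least 2-fold higher in coronary (10.2% of all genes were) and 4 in endocardial cells (8.97%). Col4a1 and Col4a2, which encode the collagen IV bound by Adgrg6, stood at 460 and 245 CPM in E12 endocardial cells and at 512 and 266 CPM in E12 coronary cells. In the adult they were 4.01-fold (2.73 to 6.14) and 6.84-fold (3.91 to 13.3) higher in coronary cells. Prnp, a further ligand of Adgrg6, had a ratio of 1.51 (1.40 to 1.64) at P2. Col3a1, a ligand of Adgrg1, was lower in coronary cells at each stage, with 0.094, 0.21, 0.36 and 0.38, and at E12 it stood at 1111 CPM in Cxcl12-rule and 717 CPM in non-endothelial cells. Tgm2, which also binds Adgrg1, stood at 35.2, 35.9, 136 and 252 CPM in coronary cells.

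All 18 genes of G proteins and their effectors had at least 50 UMIs at P2, where 2 were at least 2-fold higher in coronary cells (10.2% of all genes were) and none lower (8.97%). Gnas, which encodes the G protein that raises cyclic AMP, stood at 3245, 3530, 2230 and 552 CPM in coronary and at 1259, 1314, 1341 and 350 CPM in endocardial cells. Gng11, a gamma subunit, stood at 1035, 1480, 1735 and 1937 CPM in coronary and at 277, 593, 666 and 369 CPM in endocardial cells. Gng5, a further gamma subunit, and Gnai2, an inhibitory alpha subunit, stood at 656 and 625 CPM in adult coronary cells.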

How the data were processed

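The values in the deposited files are raw UMI counts, not normalized, which the authors made from 10x Genomics v2 3′ libraries with Cell Ranger 2.2 on mm10. The E12 file holds all barcodes, so E12 cells were called here at 452 UMIs, 0.1 of the 0.99 quantile of the top 3000 barcodes. Those cells held 88.7% of the E12 UMIs. Upper limits per library followed the study's methods (4000, 3000, 12000 and 5000 UMIs, 1500, 1300, 4000 and 2000 genes, and mitochondrial shares of 10%, 10%, 20% and 20%, in the order E12, E15, P2 and adult). Doublets were scored with the Scrublet method, written out in Python at 0.8% expected per 1000 cells, and 6.04%, 6.93%, 4.21% and 2.22% of barcodes scored over 0.15. Between 19.6% and 52.7% of simulated doublets passed that score, so doublets remain. The kept cells held 5959671 to 26361134 UMIs per library.

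UMIs were summed per class and stage and divided by the class total to give CPM. Levels have exact Poisson, ratios exact conditional binomial and shares exact Clopper-Pearson intervals, all at 95%, for counting error only. A count of 0 is given with the level that 3 UMIs would have. A ratio counted as past 2-fold from 50 UMIs in both groups together. With 1 library per stage there was no test and no p-value. Python 3.11.15, NumPy 2.4.6, SciPy 1.17.1 and pandas 2.3.3 were used, and the ratio and interval code was tested on simulated data with known folds. The members, lists and rules were chosen with earlier results of these data known. The named genes were the members, the 6 family, 5 ligand and 4 G protein genes with most UMIs, and 3 like genes per member from those with 200 UMIs. Leaving out Fabp4, lymphatic marker cells, and the groups within classes were chosen after seeing the data. Alternatives covered doublets, limits, class rules, scaling, dividing cells, cells with immediate-early genes at 2% or more, and other folds.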

Additional observations from a re-analysis of the deposited data

Results flagged for a closer look

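At E12 the file also holds barcodes that were not called as cells, and the comparisons between classes and stages do not use them. The near-empty droplets set beside the E12 levels above are among these barcodes. These 158274 barcodes held 1033891 UMIs, among them 134 of Adgrg6, 86 of Adgrf5, 67 of Adgrl2 and 27 of Adgrl4, each above the 3 counts that a count of 0 allows. Adgrg1 held 3 and did not pass that limit. The uncalled barcodes stood at 130 CPM (109 to 154) for Adgrg6, 83.2 CPM (66.5 to 103) for Adgrf5, 64.8 CPM (50.2 to 82.3) for Adgrl2 and 26.1 CPM (17.2 to 38.0) for Adgrl4, where the called cells stood at 92.4, 46.6, 48.6 and 13.8 CPM. The called over uncalled ratios were 0.71 (0.59 to 0.87) for Adgrg6, 0.56 (0.44 to 0.72) for Adgrf5, 0.75 (0.58 to 0.99) for Adgrl2 and 0.53 (0.34 to 0.84) for Adgrl4. Barcodes with 100 UMIs or fewer held 103 CPM of Adgrg6, and E12 coronary cells 10.0 CPM.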

How the results depend on the processing

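Over 15 alternatives the 53 ratios with enough UMIs were recomputed 778 times; 738 values stayed within the interval of the ratio first given, 40 moved outside it, none of the ratios past 2-fold changed direction, and 754 kept their side of 1. Of 306 recomputed counts of members, 278 were within 1.5 times the first count. Some ratios and counts could not change under some alternatives, such as those without E12 under a higher UMI limit for E12 cells. These are included in the totals of unchanged values. With Fabp4 out of the rule the count higher in coronary cells at E15 was 0, the coronary E12 to E15 count 1 and the endocardial P2 to adult count 1; without lymphatic marker cells the last was 3. Without limits and doublet removal these 3 counts were 0, 1 and 1. With classes set on thinned counts the coronary E12 to E15 count was 3 and the endocardial P2 to adult count 1. Stricter class thresholds gave 0 for endocardial cells from E12 to E15, and the mean over cells gave 1 for the endocardial step to the adult and 1 for E15 arteries, as did the default rate of Scrublet for E15 arteries. A minimum of 20 UMIs gave 1 for E15 arteries and 1, Adgrl4, for coronary cells at E12. At 1.5-fold the counts were 2 (coronary, E15), 1 (coronary E12 to E15), 3 and 3 (endocardial E15 to P2 and P2 to adult), and 1 and 2 (arteries at E15 and P2). At 3-fold they were 0 and 1 (coronary, E15 and P2), 1 and 2 (coronary E15 to P2 and P2 to adult), 0 and 0 (endocardial E12 to E15 and E15 to P2) and 0 (P2 arteries). The cause was not tested. For the other folds, class rules, filters and scalings no share of all genes was taken. Those counts cannot be set against all genes and are descriptions only. The Adgrg6 artery ratio of P2, which rests on 10 artery UMIs, was 0.62 without doublet removal and 0.14 with the default rate of Scrublet. The E12 ratio of Adgrg6 was 0.27 with classes set on thinned counts, and its E12 coronary level came from 1 cell. The adult over P2 ratio of Adgrg6 in coronary cells was 0.22 without artery cells.

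No paired analysis was possible because each stage had 1 library. The depth limits the E12 coronary class (102 cells) and the adult endocardial class (65 cells), where Adgrg1 and Adgrg6 rest on 0 to 12 UMIs.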
